A study of Caenorhabditis elegans with 20 samples.

Results

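Wild-type worms that had grown with curcumin were set directly against ahr-1 mutants that had not, to measure how far the transcriptome of curcumin-fed worms lies from that of worms of an ahr-1 mutant strain. The comparison holds 10 of the 20 arrays of the series. The first group was strain N2, wild-type, grown with 100 µM curcumin (5 arrays). The second was strain CZ2485, ahr-1(ju145), grown with 0.1% DMSO, the vehicle, alone (5 arrays). The study's methods give 0.1% DMSO for the curcumin medium as well, so that DMSO-treated here means vehicle without curcumin. Worms of both groups were treated from eggs on and collected on day 3 as pools of whole Caenorhabditis elegans. A difference is given as the log2 value in curcumin-fed wild-type minus that in DMSO-treated ahr-1(ju145). Strain and treatment differ at the same time, so that within these 10 arrays the strain and the treatment cannot be told apart. The sources used here do not say how often CZ2485 was outcrossed. The other pair of groups, DMSO-treated wild-type (5 arrays) and curcumin-fed ahr-1(ju145) (4 of 5 arrays in the fit), shares no array with the first and was therefore read beside it. In the second comparison, DMSO-treated wild-type minus curcumin-fed ahr-1(ju145), a gene that differs by strain alone keeps its sign, and a gene that differs by treatment alone turns it.

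The aryl hydrocarbon receptor is a ligand-activated transcription factor of the basic helix-loop-helix PAS family. In vertebrates it binds foreign and dietary compounds, pairs with its partner ARNT and induces enzymes that oxidize and conjugate such compounds, with cytochrome P450 genes as its best known targets. AHR-1 of C. elegans pairs with AHA-1, the worm ARNT, and is known for its part in the fate and migration of neurons. Curcumin is a polyphenol of turmeric.

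The level of ahr-1 itself does not check the strain labels, since the sources used here do not say what ju145 does to the transcript. Its log2 values were 4.86, 5.17, 4.88, 5.11 and 5.00 in curcumin-fed wild-type and 4.94, 4.27, 4.9, 4.85 and 4.98 in DMSO-treated ahr-1(ju145). The groups overlapped, replicate 2 of the mutant was the lowest array, and the difference of 0.22 (95% interval -0.08 to 0.51) did not pass limma's test (adjusted p = 0.732). In the second comparison ahr-1 passed, with a difference of 0.55 (0.24 to 0.86, adjusted p = 0.0395), lower in the mutant strain. For aha-1, the partner, the difference was 0.15 (-0.02 to 0.32, adjusted p = 0.667) in the first comparison. In the second it was 0.25 (adjusted p = 0.124) and did not pass. As facts of the whole series, the mean correlation of an array with the others of its group lay between 0.990 and 0.993 for the 20 arrays. Arrays of curcumin-fed wild-type correlated with arrays of DMSO-treated ahr-1(ju145) at 0.987 to 0.994, against 0.988 to 0.995 among the curcumin-fed wild-type arrays themselves.

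Few transcripts separated the groups. Of 29317 probe sets, 85 passed (0.29%, adjusted p under 0.1 by limma with Benjamini-Hochberg adjustment), of which 47 were higher (0.16%) and 38 lower (0.13%) in curcumin-fed wild-type. The second comparison had 1819 probe sets past the threshold (6.2%), 1086 higher (3.7%) and 733 lower (2.5%). With the array that the study's methods leave out added back, the counts were 91 and 1850. With the replicate number as a block in the fit they were 316 (1.08%) and 2290 (7.81%), so that the counts depend on whether the numbers pair the arrays. At an unadjusted p under 0.05 the first comparison had 2471 probe sets (8.43%) and the second 4786 (16.3%). Single arrays bore on these counts. The first comparison had 28, 30 and 31 higher probe sets without replicate 1 of curcumin-fed wild-type and without replicates 2 and 3 of DMSO-treated ahr-1(ju145). The second had 1167 in all and 428 lower without replicate 3 of curcumin-fed ahr-1(ju145), and 466 lower without replicate 1 of DMSO-treated wild-type. Differences of more than 1 on the log2 scale were found for 59 probe sets in the first comparison and 283 in the second. The 59 became 103 without replicate 5 of curcumin-fed wild-type and 106 without replicate 4 of the mutant, and the median standard errors were 0.11 and 0.12. The 95% interval of the difference lay within ±0.5 for 24345 probe sets (83%) in the first comparison. The 5 and 5 arrays did not overlap for 450 probe sets (1.53%), among them 78 of the 85 that passed. The sizes of the passing differences ran from 0.29 to 2.41.

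The second comparison divided the 85 probe sets into 3 classes. In 33 it passed in the same direction, in 23 in the opposite direction, and in 29 it did not pass. The 33 were mostly lower in curcumin-fed wild-type (23 lower, 10 higher), whereas the 23 were nearly all higher (21 higher, 2 lower). The 29 held 16 higher and 13 lower, and 20 of them had the same sign in the second comparison. Both comparisons come from the same fit and share its estimate of the spread, and the classes describe these arrays.

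**Figure D1:**
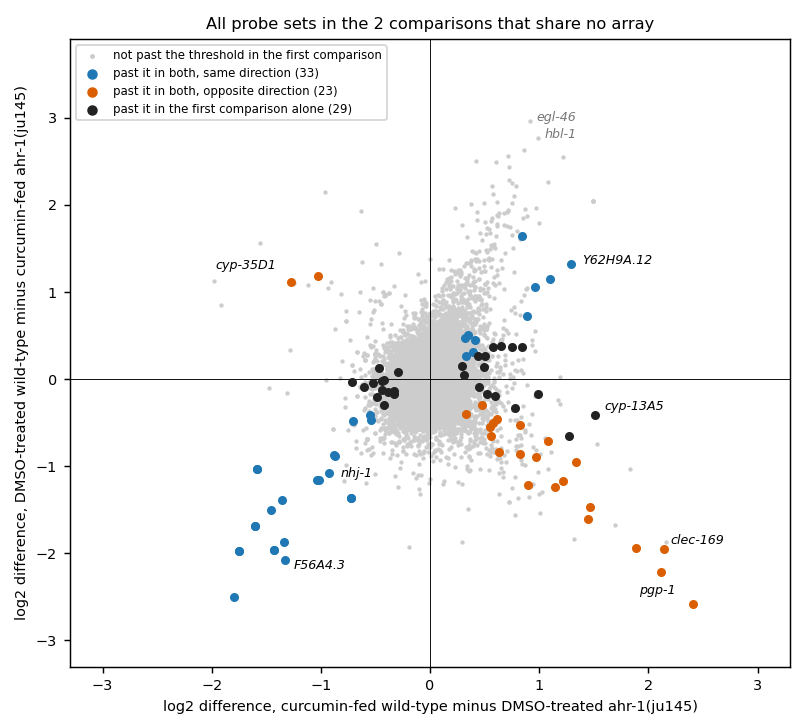
Log2 difference of each of the 29317 probe sets between curcumin-fed wild-type and DMSO-treated ahr-1(ju145) (x axis) against the difference between DMSO-treated wild-type and curcumin-fed ahr-1(ju145) (y axis). Blue points (33) passed in both with the same direction, orange points (23) passed in both with opposite directions, black points (29) passed in the first alone, and the grey cloud is taller than it is wide.

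Genes that were higher in curcumin-fed wild-type and turned their sign in the second comparison included an exporter, lectins, a metal-response gene and an enzyme of cofactor synthesis. The largest difference of all was that of pgp-1, a P-glycoprotein of the ABC transporters that pump foreign compounds out of cells. Its values were 9.44, 9.10, 9.33, 8.81 and 8.89 in curcumin-fed wild-type and 7.06, 6.53, 6.72, 6.39 and 6.80 in DMSO-treated ahr-1(ju145). Every curcumin-fed array lay far above every mutant array, a difference of 2.41 ± 0.16 (SE), or 5.32-fold (adjusted p = 5.26e-08). The mean level was 6.38 ± 0.09 (SD, n = 5) in DMSO-treated wild-type and 8.96 ± 0.38 (SD, n = 4) in curcumin-fed ahr-1(ju145), so that the 2 curcumin-fed groups were high and the 2 DMSO groups low whatever the strain.

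The C-type lectin gene clec-169, of a family of carbohydrate-binding proteins that respond to bacteria, followed with 7.12, 6.4, 6.33, 6.79 and 6.80 against 4.31, 4.36, 4.57, 4.94 and 4.55. No array of the mutant reached any of the curcumin-fed arrays (difference 2.14 ± 0.19, adjusted p = 5.39e-06). A second lectin gene, clec-57, had 7.32, 7.03, 7.33, 6.99 and 6.96 against 6.14, 6.31, 6.23, 6.46 and 6.39, a difference of 0.82 ± 0.13 without overlap (adjusted p = 0.00688). Of the 247 lectin genes measured, 3 were higher and 0 lower, and the median difference of the family was 0.00, against -0.01 over all probe sets. The third of them, clec-6, had a difference of 0.45 (adjusted p = 0.0989), did not pass in the second comparison, and lost its call when any of 15 of the 19 arrays was left out (adjusted p up to 0.239).

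For numr-1, a nuclear protein gene of the response to metals, the values were 5.50, 4.7, 5.92, 4.63 and 4.71 against 3.97, 3.48, 3.81, 3.41 and 3.45. Replicates 1 and 3 of curcumin-fed wild-type were the highest, and the groups did not overlap (difference 1.47 ± 0.25, adjusted p = 0.0127). It was the only one of 12 metal-response genes to pass, and the median of that list was 0.02. The cat-4 gene codes for GTP cyclohydrolase, which makes the cofactor for the synthesis of dopamine and serotonin. Its values were 8.18, 7.93, 7.94, 7.78 and 7.52 against 6.82, 7.34, 6.92, 6.92 and 6.53, all curcumin-fed arrays above all mutant arrays (difference 0.97 ± 0.15, adjusted p = 0.00688). In both genes the groups with DMSO were alike in level, with means of 3.65 in DMSO-treated wild-type and 3.63 in DMSO-treated ahr-1(ju145) for numr-1, and of 6.95 and 6.90 for cat-4.

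Other genes of this class had differences of 2.12 (C40H1.8, adjusted p = 0.00431), 1.88 (ZK742.3, 2.7e-06), 1.44 (H43E16.1, 0.012), 1.33 (mul-1, a mucin-like gene, 0.0222), 1.21 (F09C8.1, 0.00863), 1.14 (F58B4.5, 0.023) and 1.08 (T19C9.8, 0.023). They had no overlap between the groups. T19C9.8 lost its call when replicate 5 of both compared groups was left out (adjusted p = 0.124). The study named 6 of these genes, H43E16.1, numr-1, mul-1, F09C8.1, F58B4.5 and T19C9.8, from the same arrays, so that their rise with curcumin is not independent of that choice. The same holds for ugt-48, cyp-35A5, cyp-13A5, oac-14 and F56A4.3, described next.

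The UDP-glucuronosyltransferase gene ugt-48, whose product joins compounds to a sugar, had 7.28, 6.99, 7.26, 7.04 and 6.52 against 5.90, 6.29, 6.10, 6.38 and 5.92. The lowest curcumin-fed array, replicate 5, was still above the highest mutant array (difference 0.90 ± 0.18, adjusted p = 0.0498). The call was lost when replicate 1, 2 or 3 of curcumin-fed wild-type or replicate 1, 3 or 5 of DMSO-treated ahr-1(ju145) was left out (adjusted p up to 0.164). It was the only one of 67 ugt genes to pass. Smaller differences in this class were those of cest-4, a carboxylesterase gene whose groups overlapped (0.63), asah-2, of the acid ceramidase family (0.61), and plpp-1.2, a phospholipid phosphatase gene (0.58).

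Only 2 genes were lower in curcumin-fed wild-type and turned their sign, and both were cytochrome P450 genes of the cyp-35 family, which responds to foreign compounds and fat metabolism. For cyp-35D1 the values were 4.02, 4.21, 4.19, 4.43 and 4.00 in curcumin-fed wild-type and 5.69, 4.46, 5.05, 6.42 and 5.57 in DMSO-treated ahr-1(ju145). Replicate 2 of the mutant nearly touched replicate 4 of curcumin-fed wild-type, and the difference was -1.27 ± 0.26, 2.41-fold lower (adjusted p = 0.0455). For cyp-35A5 they were 4.6, 4.47, 4.35, 5.10 and 4.45 against 5.68, 5.20, 5.43, 6.30 and 5.49, a difference of -1.03 ± 0.22 (adjusted p = 0.077). Replicate 4 was the highest array of each group, and the groups did not overlap. The call on cyp-35D1 was lost without replicate 1, 2 or 5 of curcumin-fed wild-type or replicate 1 or 5 of the mutant (adjusted p up to 0.137). That on cyp-35A5 was lost without replicate 1, 2, 3 or 5 of curcumin-fed wild-type or replicate 1, 3, 4 or 5 of the mutant (adjusted p up to 0.179).

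The P450 genes did not move in 1 direction as a group, and their median difference was -0.04. Before adjustment, limma's p was below 0.05 for 12 lower and 6 higher genes of the 74 measured. Of all probe sets, 4.67% were lower and 3.76% higher by that test. After adjustment 1 gene was higher and 2 were lower, beside 0.16% and 0.13% of all probe sets. An excess of the P450 counts over these shares was not tested. The higher one was cyp-13A5, with 4.88, 4.9, 5.63, 4.54 and 5.35 in curcumin-fed wild-type and 3.38, 3.36, 4.03, 3.92 and 3.04 in DMSO-treated ahr-1(ju145), which did not overlap (difference 1.51 ± 0.21, 2.86-fold, adjusted p = 0.00117). In the second comparison its difference was -0.41 (-0.87 to 0.05) and did not pass. Its mean level was 4.01 in DMSO-treated wild-type and 4.42 in curcumin-fed ahr-1(ju145), both between the levels of the 2 groups compared. Its relatives had a difference of -1.55 (-2.29 to -0.82) for cyp-13A6, just outside the threshold (adjusted p = 0.103), and of 0.32 (-0.12 to 0.75) for cyp-13A8 (adjusted p = 0.74).

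**Figure D2:**
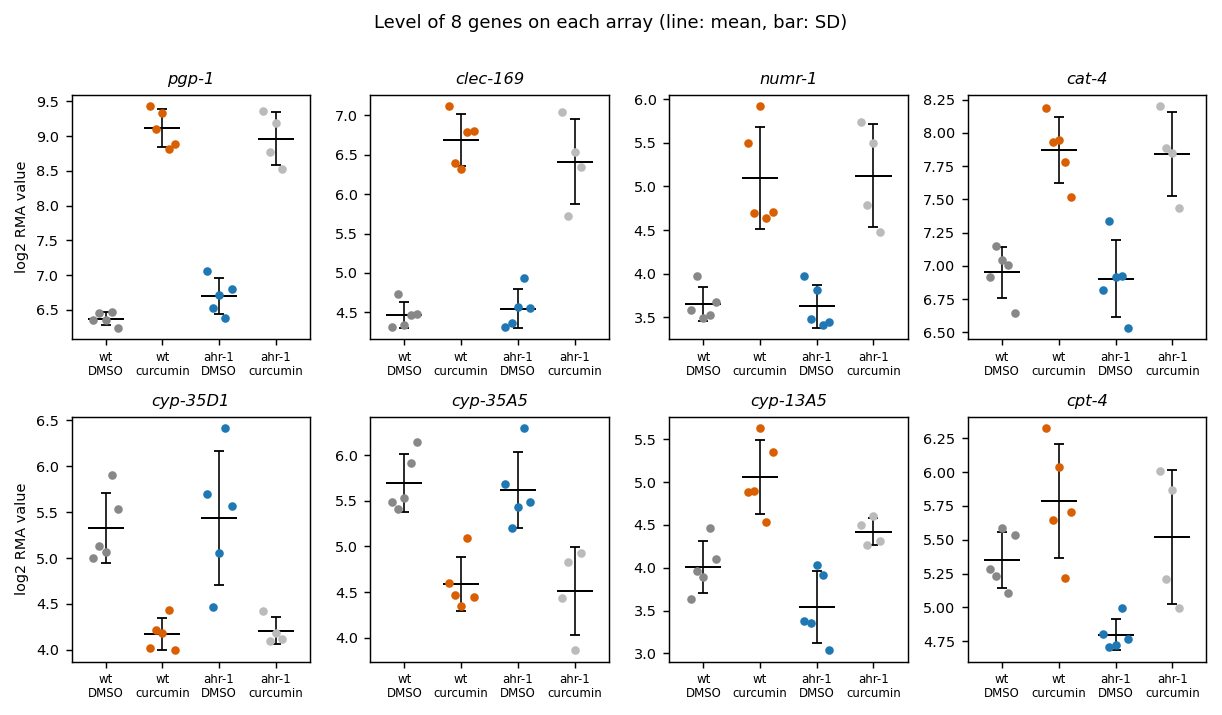
Log2 value of each array (points), group mean (line) and SD (bar) for 8 genes in the 4 groups (n = 5, and n = 4 for curcumin-fed ahr-1). In pgp-1, clec-169, numr-1 and cat-4 both curcumin-fed groups are high, in cyp-35D1 and cyp-35A5 both are low, and in cyp-13A5 and cpt-4 the highest mean is that of curcumin-fed wild-type and the lowest that of DMSO-treated ahr-1.

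Genes that kept their direction in the second comparison differed the same way between the strains in both pairs of groups. The largest difference among those higher in curcumin-fed wild-type was that of Y62H9A.12, with 5.87, 6.10, 6.09, 5.61 and 5.92 against 4.92, 4.83, 4.15, 4.45 and 4.81. The groups did not overlap (difference 1.29 ± 0.17, adjusted p = 0.000585), and the second comparison gave nearly the same difference, 1.32. In the reference gene order its neighbours Y62H9A.15 and Y62H9A.16 passed too, in the same direction (0.85 and 0.50), although neither passed in the second comparison. The F-box gene fbxa-192 (7.39, 7.04, 7.02, 7.04 and 6.98 against 6.36, 6.06, 6.01, 5.19 and 6.34) had a difference of 1.1 ± 0.19 (adjusted p = 0.0127) and, in the second comparison, of 1.15.

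Higher in curcumin-fed wild-type with the same direction in the second comparison were also genes of neurons and of epithelia. The neuropeptide gene nlp-20 had 5.84, 5.89, 5.38, 5.83 and 6.4 against 5.14, 5.06, 4.81, 4.87 and 4.67, a difference of 0.96 ± 0.16 without overlap (adjusted p = 0.00929). It was the only one of 153 neuropeptide genes to pass. For aex-3, which codes for an activator of the synaptic vesicle protein RAB-3, the difference was small but regular, 0.33 ± 0.07, with values of 7.13 to 7.22 against 6.75 to 6.94 (adjusted p = 0.0394). Its call was lost without replicate 1, 2 or 3 of curcumin-fed wild-type or replicate 1, 2 or 5 of DMSO-treated ahr-1(ju145) (adjusted p up to 0.125). Other members were ajm-1, of the apical junctions of epithelia (0.32), dre-1, an F-box protein of developmental timing (0.39), and lim-7, a LIM homeobox gene (0.41, adjusted p = 0.0863). The call on lim-7 was lost with 18 of the 19 arrays left out in turn (adjusted p up to 0.174).

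The lower genes of this class, which were higher in the mutant strain, included nhj-1, a gene of the joining of DNA ends. Its values were 5.86, 6.03, 6.47, 6.2 and 6.30 in curcumin-fed wild-type and 7.21, 7.07, 7.05, 7.30 and 6.86 in DMSO-treated ahr-1(ju145). No arrays overlapped (difference -0.92 ± 0.13, 1.9-fold lower, adjusted p = 0.00203), and the second comparison gave -1.08. B0511.11 had 4.54, 5.06, 4.93, 4.11 and 3.42 against 5.27, 5.93, 5.83, 5.71 and 5.99 (difference -1.33 ± 0.26, adjusted p = 0.0352), and its call was lost without replicate 2, 3 or 5 of the mutant (adjusted p up to 0.111). R102.6 (-0.54), Y47G7B.2 (-0.71) and the F-box gene fbxa-2 (-0.55) made up the rest of the genes with a probe set of their own, together with F56A4.3. The call on fbxa-2 was lost without replicate 1, 2, 3 or 5 of curcumin-fed wild-type or replicate 1, 2, 3 or 4 of the mutant (adjusted p up to 0.171).

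Many of the lower probe sets list genes near F56A4.3, which was itself lower. Its values were 6.77, 7.19, 6.88, 6.86 and 6.64 in curcumin-fed wild-type and 7.99, 9.04, 8.21, 8.12 and 7.63 in DMSO-treated ahr-1(ju145), without overlap (difference -1.33 ± 0.20, 2.51-fold lower, adjusted p = 0.00378). In the second comparison the difference was -2.08. Of the 38 probe sets that were lower, 17 match several genes and cannot be given to a single gene. These 17 hold 12 distinct sets of values, and each matches a pair of genes. Their differences ran from -1.80 to -0.72 with a median of -1.43, none overlapped between the groups, and all 17 passed in the same direction in the second comparison (-2.51 to -0.87). They were not all of low level, with means in DMSO-treated ahr-1(ju145) from 5.15 to 12.4.

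Every one of the 17 lists a gene that lies within 10 protein-coding genes of F56A4.3 in the reference gene order. The 18 different genes they list lie between 23 genes before and 16 genes after F56A4.3, and the members of a pair are at most 24 genes apart. In the same neighbourhood, defined after these values had been seen, 40 probe sets list a gene within 10 genes of F56A4.3. Of these, 18 were lower (45%) and 0 higher, against 0.13% lower over the whole array, and 22 did not pass. The other genes there with a probe set of their own had differences of -0.02 (nas-2), -0.25 (F56A4.10) and -0.30 (irld-35), with adjusted p of 0.976, 0.729 and 0.677. Thus 18 of the 38 lower probe sets, counting F56A4.3, came from this neighbourhood. Some of these probe sets have identical values and were counted more than once. The 38 hold 33 distinct sets of values, the 17 hold 12, and the 40 of the neighbourhood hold 28.

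**Figure D3:**
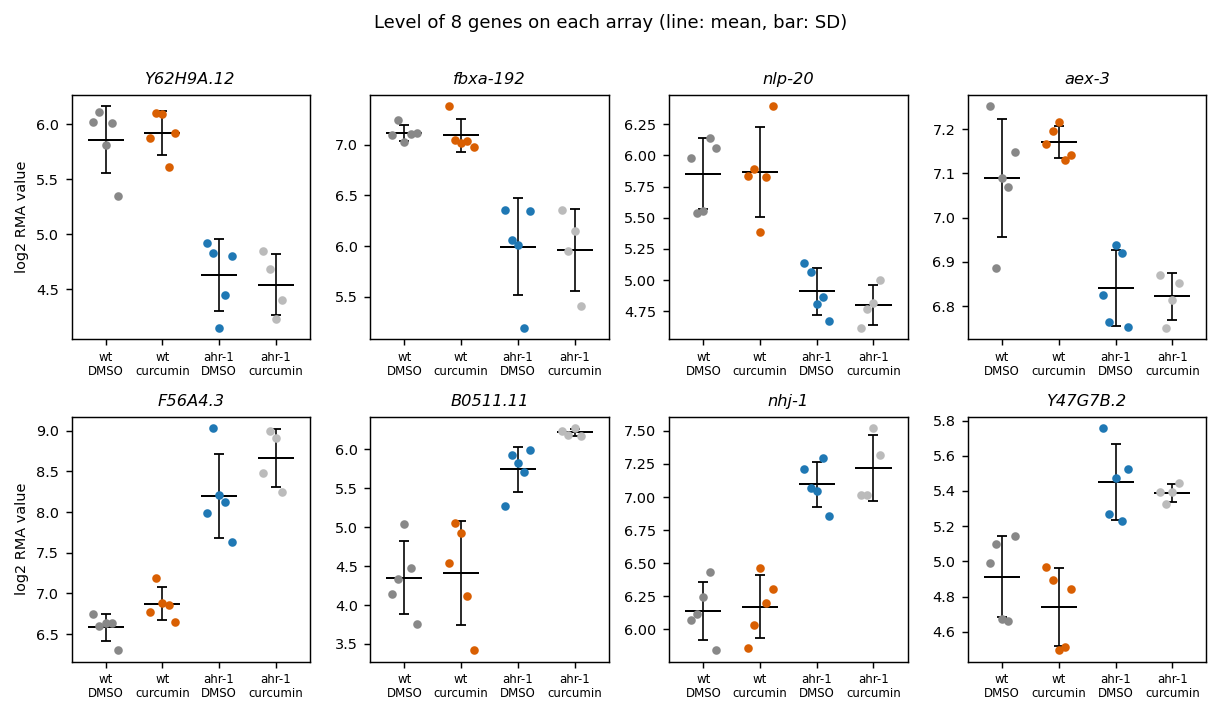
Log2 value of each array (points), group mean (line) and SD (bar) for 8 genes in the 4 groups (n = 5, and n = 4 for curcumin-fed ahr-1). In the upper row the means of both wild-type groups are higher than those of both ahr-1 groups, and in the lower row they are lower.

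Of the 29 probe sets past the threshold in the first comparison alone, the difference between the comparisons, a test added after the values had been seen, passed for 8. This difference equals the change with curcumin in wild-type plus that in ahr-1(ju145), so that it tests a treatment effect summed over both strains. For the other 21 an unequal difference in the 2 comparisons was not shown. The 29 were picked by the values that this test compares, so that passes among them were favoured. Of all probe sets, 214 passed it (0.73%). The 8 included cyp-13A5, cpt-4, lbp-8, oac-14 and F53A9.1. For cpt-4, of the carnitine palmitoyltransferase family that brings fatty acids into mitochondria, the values were 6.33, 5.64, 6.04, 5.22 and 5.71 against 4.80, 4.71, 4.72, 5.00 and 4.76. The groups did not overlap (difference 0.99 ± 0.19, adjusted p = 0.0389), whereas the second comparison gave -0.17 (-0.60 to 0.26). For lbp-8, a lipid-binding protein of lysosomal signalling, they were 3.66, 3.87, 4.28, 3.33 and 3.63 against 3.01, 2.87, 3.26, 2.91 and 2.82, a difference of 0.78 ± 0.15 (adjusted p = 0.0281) and of -0.33 in the second comparison. These were the 2 of 123 genes of fatty acid and lipid metabolism that passed, and the median of that list was 0.00. The call on cpt-4 was lost without replicate 1 or 3 of curcumin-fed wild-type or replicate 2, 3 or 5 of the mutant (adjusted p up to 0.121). Both calls were lost when replicate 5 of both groups was left out (adjusted p = 0.162 for cpt-4 and 0.125 for lbp-8).

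The O-acyltransferase gene oac-14 is the example of a gene that passed although the groups overlapped. Its values were 6.68, 6.17, 7.08, 6.19 and 6.59 against 5.07, 5.03, 5.14, 6.18 and 4.91. Replicate 4 of the mutant stood apart from the other arrays of its group and lay among the curcumin-fed arrays (difference 1.28 ± 0.25, adjusted p = 0.0405). The call was lost without replicate 1 or 3 of curcumin-fed wild-type or replicate 1, 2, 3 or 5 of the mutant (adjusted p up to 0.139). The most regular small differences of this class were those of F53A9.1 (2.73 to 3.04 against 2.23 to 2.47, difference 0.59, adjusted p = 0.00396) and irld-52, of the insulin and EGF receptor-like domain family (2.66 to 2.86 against 3.19 to 3.55, difference -0.60, adjusted p = 0.00422). Both are at low log2 levels. Of the other lower genes of this class, R03G5.8 (-0.71, adjusted p = 0.0205), F09A5.10 (-0.42, 0.0179), K03A11.6 (-0.44, 0.0341) and F40H6.2 (-0.44, 0.083) had differences of -0.13 to -0.01 in the second comparison. The call on K03A11.6 was lost without replicate 2 of curcumin-fed wild-type or replicate 2 or 3 of the mutant (adjusted p up to 0.117), and that on F40H6.2 with any of 13 of the 19 arrays left out (up to 0.226).

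From the genes the study named, with hbl-1 added to them, 10 were chosen by their values in both comparisons. They passed in the second with a difference above 1, and were higher without passing in the first. They are hbl-1 (a zinc finger factor of larval timing), egl-46 (a zinc finger factor of neuron fate), atf-2 (a bZIP factor), dyf-7 (of dendrite anchoring), ptr-4 (a patched-related protein of molting), the lipocalin-related lpr-4 and lpr-5, chtb-1, T20F5.4 and ugt-57. For hbl-1 the values were 8.66, 8.97, 7.95, 8.83 and 10.07 in curcumin-fed wild-type and 8.28, 7.16, 7.54, 7.76 and 8.77 in DMSO-treated ahr-1(ju145). The groups overlapped, with replicate 5 the highest of each (difference 0.99, 0.28 to 1.70, adjusted p = 0.389). With the replicate number as a block in the fit, hbl-1, chtb-1 and ptr-4 passed in the first comparison as well. In the second comparison hbl-1 had a difference of 2.77 (2.02 to 3.52, adjusted p = 0.000434), from a mean of 9.70 in DMSO-treated wild-type and of 6.93 in curcumin-fed ahr-1(ju145).

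For egl-46 the values were 8.16, 8.55, 7.25, 7.81 and 9.48 against 7.94, 6.79, 6.85, 7.07 and 8.03, again with overlap (difference 0.91, 0.16 to 1.66, adjusted p = 0.478), and the second comparison gave 2.96. In all 10 genes the mean of curcumin-fed wild-type lay between those of DMSO-treated wild-type and of DMSO-treated ahr-1(ju145). That it lay above DMSO-treated ahr-1(ju145) was fixed by the choice of the 10, which were taken as higher in the first comparison. This choice left out lys-7, with a difference of -0.96 in the first comparison and 2.15 in the second. It also left out cyp-35A5, which passed in both, with -1.03 in the first and 1.18 in the second. The study had named several of the 10 for their change between ahr-1(ju145) and wild-type. Differences of the 10 genes ran from 0.23 to 1.00 in the first comparison (adjusted p 0.389 to 0.881) and from 1.74 to 2.96 in the second. The difference between the comparisons themselves, added after these values had been seen, passed for 1 of the 10, ugt-57 (-1.73, adjusted p = 0.0695), and not for hbl-1 (-1.78, adjusted p = 0.153), egl-46 (-2.05, 0.116), atf-2 (-1.78, 0.172) or dyf-7 (-1.85, 0.116). Over the array 214 probe sets passed that test (0.73%).

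A common array order ran through these genes. Replicate 5 was the highest curcumin-fed wild-type array and replicate 3 the lowest in 10 of 10, and replicate 5 was the highest DMSO-treated ahr-1(ju145) array in 9 of 10. Without replicate 5 of curcumin-fed wild-type the differences fell to -0.04 to 0.70, and the lowest adjusted p was 0.543. For hbl-1, lpr-4 and ugt-57 they were 0.70, 0.56 and -0.04. Without replicate 5 of both groups the differences of the 10 genes were 0.09 to 0.92.

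Gene lists of development were counted in both comparisons. Of 62 axon guidance genes, 0 passed in the first comparison, where an unadjusted p under 0.05 gave 10 higher and 1 lower (over all probe sets 3.76% and 4.67%), whereas 26 were higher in the second, beside 3.7% of all probe sets. Of 90 homeobox genes, 2 were higher in the first, lim-7 and ceh-31 (0.44, adjusted p = 0.0473), and 32 in the second. The call on ceh-31 was lost without replicate 1, 3 or 5 of curcumin-fed wild-type or replicate 2 or 3 of the mutant (adjusted p up to 0.145). The counts higher were 0 of 12 and 7 of 12 for cadherins, 0 of 41 and 10 of 41 for basic helix-loop-helix factors, 0 of 28 and 9 of 28 for the Wnt pathway, 0 of 20 and 7 of 20 for histones, and 0 of 180 and 29 of 180 for genes of molting and apical matrix. At an unadjusted p under 0.05 limma had 2, 0, 2, 3 and 19 of these higher in the first comparison, where 3.76% of all probe sets were. The medians of the first comparison were 0.09 for axon guidance, 0.10 for homeobox, 0.16 for cadherin and 0.11 for histone genes, against -0.01 over all probe sets. In the second comparison they were 0.29, 0.18, 0.49 and 0.18. Without replicate 5 of curcumin-fed wild-type, the medians of the first comparison were 0.06, 0.02, 0.15 and 0.04. The difference between the comparisons passed for 0 of the axon guidance, homeobox, cadherin, basic helix-loop-helix and Wnt genes. It passed, with the lower value in the first comparison, for 2 histone genes and 3 genes of molting and apical matrix, beside 0.153% of all probe sets in that direction.

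The mean level of 34 embryo markers moved with the second comparison and not with the first. It ranged from 5.53 to 5.88 over the arrays of curcumin-fed wild-type and from 5.62 to 5.90 over those of DMSO-treated ahr-1(ju145). In the other pair it ranged from 5.72 to 5.98 in DMSO-treated wild-type and from 5.54 to 5.67 in the fitted arrays of curcumin-fed ahr-1(ju145), without overlap. Replicate 5 of curcumin-fed ahr-1(ju145), which was left out of the fit, had 5.79, within the range of DMSO-treated wild-type. Of the 34 markers, 0 passed in the first comparison (3 lower at an unadjusted p under 0.05) and 4 were higher in the second, and 7 of the 34 belong to the lists of developmental genes as well. With the mean of the embryo markers of each array as a covariate, the second comparison fell from 1819 to 234 probe sets past the threshold, with 4 axon guidance and 3 homeobox genes left. Its differences did not become smaller, with an SD over all probe sets of 0.257 before and 0.263 after. Those of more than 1 on the log2 scale numbered 283 and 286. Since the embryo mean did not overlap between its fitted groups, the covariate and this comparison are hard to separate, and the lower count does not show what the differences come from. The first rose from 85 to 189, of which 139 were higher, with 4 axon guidance, 7 homeobox and 10 molting genes. The number of embryos and the RNA per cell cannot be told apart in whole worms.

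**Figure D4:**
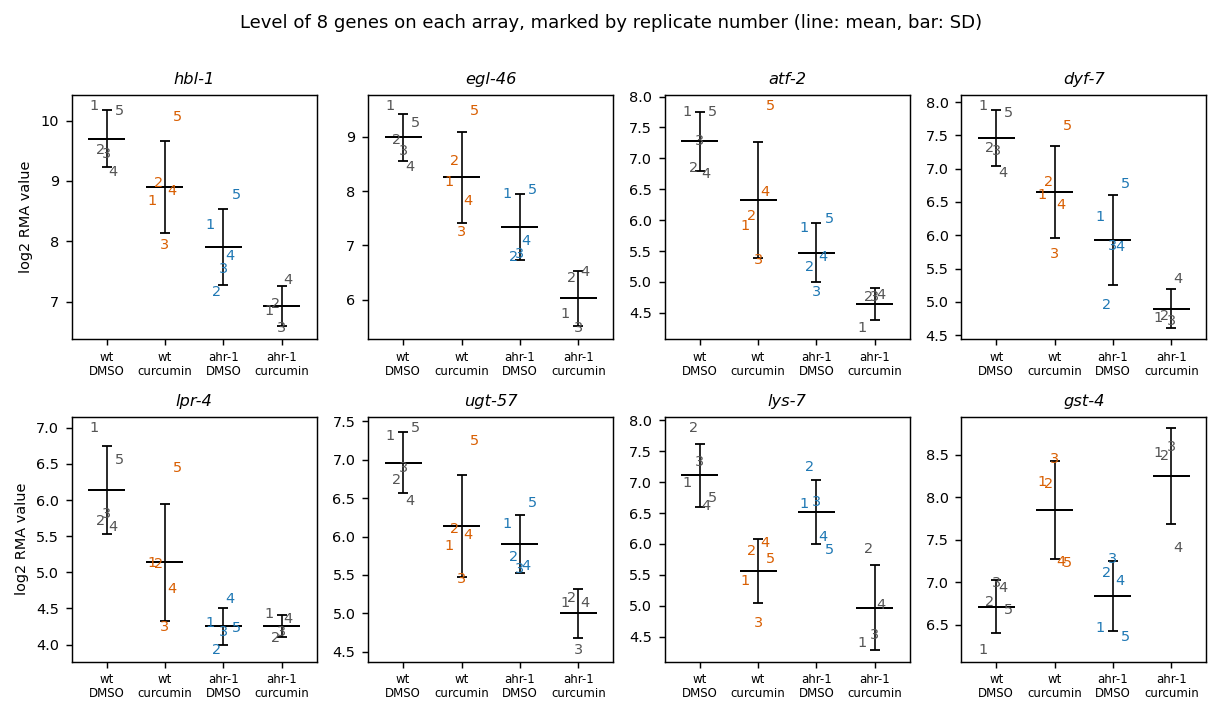
Log2 value of each array, marked by its replicate number, with the group mean (line) and SD (bar) for 8 genes in the 4 groups (n = 5, and n = 4 for curcumin-fed ahr-1). In hbl-1, egl-46, atf-2 and dyf-7 the 4 means descend from DMSO-treated wild-type to curcumin-fed ahr-1, and replicate 5 is the highest array of both middle groups.

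Among the genes of conjugation and of the SKN-1 response to oxidants, 0 of 48 glutathione S-transferase genes and 0 of 23 SKN-1 target genes passed. Limma had 8 and 6 higher and 3 and 0 lower at an unadjusted p under 0.05, beside 3.76% and 4.67% of all probe sets. In the second comparison 8 and 9 genes of these lists were lower, beside 2.5% of all probe sets. The lists share 9 genes, and 7 of these are in both counts, so that the counts are not separate evidence. The list medians were 0.08 and 0.15 in the first comparison and -0.14 and -0.22 in the second. The difference between the comparisons passed for 5 glutathione S-transferase and 5 SKN-1 target genes, 4 of them the same, all higher, beside 0.576% of all probe sets in that direction. The best known of these genes, gst-4, had 8.18, 8.15, 8.44, 7.24 and 7.23 in curcumin-fed wild-type and 6.46, 7.11, 7.28, 7.01 and 6.35 in DMSO-treated ahr-1(ju145). Replicates 4 and 5 of curcumin-fed wild-type fell just below the highest mutant array, and the difference of 1.00 (0.43 to 1.58) did not pass (adjusted p = 0.233). It passed in limma with the replicate number as a block (adjusted p = 0.0688). The level of skn-1 itself differed by -0.02 (-0.13 to 0.10). Of 49 ABC transporter genes, pgp-1 was higher and mrp-8, a multidrug resistance protein gene, lower (-0.33, adjusted p = 0.0655). The call on mrp-8 was lost without replicate 1, 2, 3 or 5 of either group (adjusted p up to 0.166).

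Some genes were close to equal in the 2 groups. For ugt-29 the values were 4.10, 4.2, 4.21, 4.13 and 4.11 in curcumin-fed wild-type and 4.2, 4.23, 4.08, 4.03 and 4.22 in DMSO-treated ahr-1(ju145). The groups lay within each other, and the 95% interval of the difference was -0.14 to 0.14, while the second comparison gave -0.40 (adjusted p = 0.00258). The intervals were -0.10 to 0.20 for nhr-239, a nuclear hormone receptor gene, -0.25 to 0.19 for ugt-45, -0.19 to 0.32 for C14A4.9, 0.01 to 0.44 for slc-17.5, a solute carrier gene, and 0.02 to 0.43 for ugt-9. For C14A4.9 the second comparison gave 0.77, for slc-17.5 -0.71 and for ugt-9 -0.58. The difference between the comparisons passed for slc-17.5 (adjusted p = 0.00458), ugt-9 (0.0114) and ugt-29 (0.0837), and not for C14A4.9 (0.109) or nhr-239 (0.246). The study chose these genes on the same arrays, so that their closeness here is no independent evidence of it. Neither slc-17.5 (adjusted p = 0.569) nor ugt-9 (0.556) passed in the first comparison.

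The lysozyme gene lys-7 was lower in curcumin-fed wild-type by its mean only. Its values were 5.4, 5.89, 4.72, 6.01 and 5.76 against 6.65, 7.24, 6.67, 6.12 and 5.91, with replicate 5 of the mutant below replicate 4 of curcumin-fed wild-type. The difference was -0.96 (-1.63 to -0.29, adjusted p = 0.372), and the second comparison gave 2.15. The difference between the comparisons passed (-3.11, adjusted p = 0.00285). Of 110 lysozyme and antimicrobial peptide genes, 1 passed, spp-14 of the saposin-like family, with a difference of -0.47 (adjusted p = 0.0612) and replicate 4 of curcumin-fed wild-type among the mutant arrays. The call on spp-14 was lost without replicate 1, 2, 3 or 5 of curcumin-fed wild-type or replicate 1, 2 or 3 of the mutant (adjusted p up to 0.164).

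**Figure D5:**
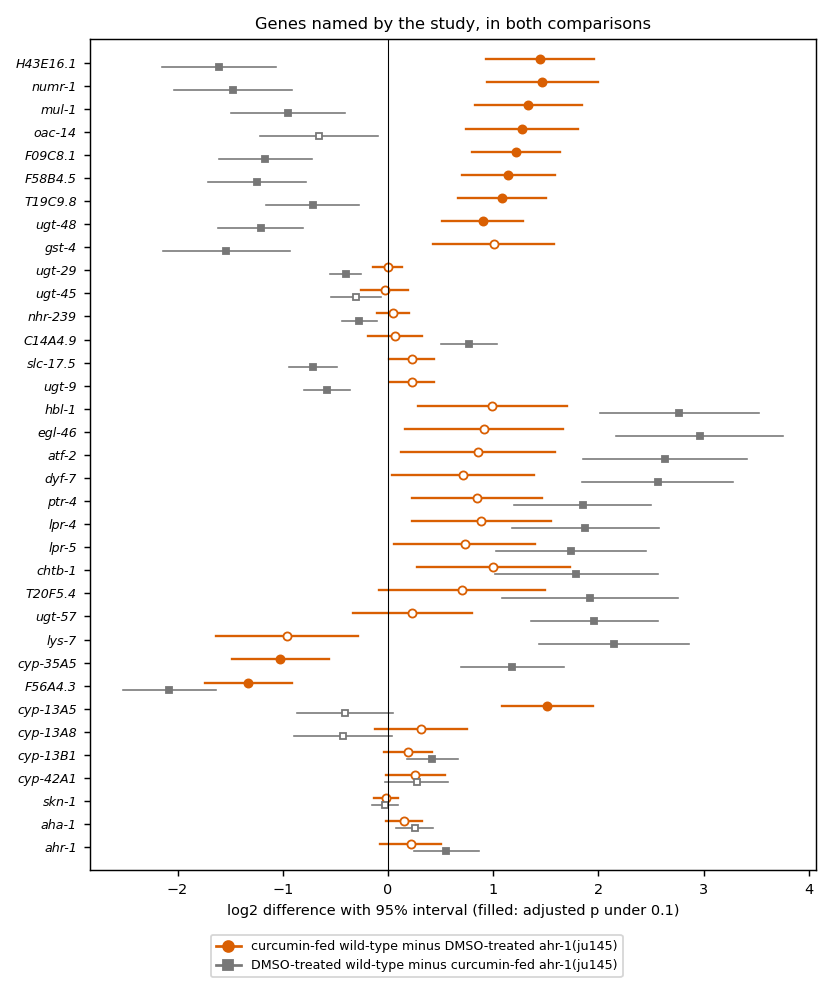
Log2 difference with its 95% interval for 35 genes (rows) in the first comparison (orange circles) and the second (grey squares), filled where the adjusted p was under 0.1. The orange intervals of ugt-29, ugt-45, nhr-239 and skn-1 lie close to 0, and those from hbl-1 to ugt-57 are nearer to 0 than the grey ones.

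Few markers of tissues passed between the 2 groups. Of 39 germline and oocyte genes, 62 sperm genes, 18 body wall muscle genes, 17 intestine genes and 5 vitellogenin genes, 0 passed. At an unadjusted p under 0.05 limma had 0, 1, 0, 4 and 0 of them higher and 0, 1, 0, 0 and 1 lower. The shares over all probe sets were 3.76% higher and 4.67% lower. Of the germline and oocyte genes 15.4% had a difference above 0, against 45.7% of all probe sets. The mean level of the germline list was 10.79 to 10.83 in curcumin-fed wild-type and 10.81 to 10.88 in DMSO-treated ahr-1(ju145), that of the muscle list 9.58 to 9.92 and 9.69 to 10.05, and that of the intestine list 9.02 to 9.42 and 8.95 to 9.34. The ranges overlapped in each. The intestine list had the highest median of the tissue lists, 0.19, with 4 of its 17 genes higher at an unadjusted p under 0.05. Of 16 pan-neuronal genes, aex-3 alone passed, and the median was 0.02. Of 177 cuticle collagen genes and 271 nuclear hormone receptor genes, 0 passed, with 12 and 15 higher and 5 and 13 lower at an unadjusted p under 0.05. Of 15 genes of touch receptor neurons and 7 soluble guanylate cyclase genes, which mark neurons that sense oxygen, 0 passed as well (2 and 0 higher, 0 lower unadjusted). The medians were 0.06 for the collagen and 0.02 for the receptor genes.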

How the data were processed

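Whole-worm RNA was measured on Affymetrix arrays. The values analysed are the authors' deposited log2 values, made by RMA in the R package oligo (background correction, quantile normalization and a summary per probe set). For the genome build, no source used here gives a name. The authors' own comparison tables, which hold fold changes and p-values, were not used. All 29317 probe sets were fitted in limma 3.58.1 (R 4.3.3) with a mean per group on 19 arrays, leaving out replicate 5 of curcumin-fed ahr-1(ju145) as in the study's methods, with 15 residual and 3.38 prior degrees of freedom and adjusted p under 0.1. P-values are two-sided. The labels name replicates, and the methods call them independent.

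Symbols came from the platform's annotation, with 25546 probe sets of 1 symbol, 646 of several and 3125 of none. Genes were named only from probe sets of 1 symbol. A gene in a list was represented by its brightest probe set. Gene order was read from the RefSeq table of WBcel235. The genes named are the 12 higher and 12 lower with the largest differences among those that passed without overlap. Added were up to 4 passing members of each list and of each class, ahr-1, aha-1, hbl-1 and the genes the study names. Of the latter, 4 have no probe set of their own. A few others were chosen after their values were seen. The comparison and the gene lists were chosen with earlier results of these data known. The fit was checked in a simulation with independent noise, in which 96% of changes of 1 and 61% of changes of 0.5 on the log2 scale were recovered in the first comparison and 10.3% of calls were of unchanged genes. Alternatives covered the arrays, block, weights, normalization, variance model, filters, thresholds, an embryo covariate and each array left out. The fit without replicate 5 of both compared groups was added after the data had been seen. Precision is limited by the number of arrays.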

Additional observations from a re-analysis of the deposited data

Results flagged for a closer look

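In the 2 groups compared, 7 of 128 sets of 5 arrays (64 genes) held an array far from the others of its group, which is 5.47%, where chance marks about 1 in 20. In DMSO-treated ahr-1(ju145) these were replicate 4 for oac-14 at 6.18 (nearest array 5.14), replicate 1 for T19C9.8 at 3.65 (nearest 4.28) and replicate 2 for ahr-1 itself at 4.27 (nearest 4.85). In curcumin-fed wild-type they were replicate 1 for fbxa-192 at 7.39 (nearest 7.04), replicate 2 for ceh-31 at 3.19 (nearest 3.35), replicate 3 for cyp-13A8 at 4.37 (nearest 3.66) and replicate 4 for spp-14 at 9.85 (nearest 9.42). The 7 arrays are of 7 genes and no array of either group was marked for more than 1 of them. Of the 7 genes, 5 passed the test, and the values of oac-14 and spp-14 are those that made their groups overlap.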

How the results depend on the processing

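Of the 40 named genes that passed, 21 held under every alternative that tested them, and no direction was reversed. The 85 probe sets became 46 with the compared arrays alone (24 higher, 22 lower, 14 passing in the opposite direction in the second comparison) and 189 with the embryo markers as a covariate (139 higher, 52 in the same and 10 in the opposite direction). They became 110 with dim probe sets removed (71 higher). With probe sets of 1 symbol alone, 20 were lower and 17 passed in the same direction. With the replicate number as a replicate block, 316 passed (193 higher, 123 lower, 86 in the same and 98 in the opposite direction), among them all 85. Same-numbered arrays of the 2 groups had deviations that correlated at 0.126, 0.0744, 0.147, 0.310 and 0.239, against a mean of -0.04 for unlike numbers. The second lies under 0.1, the limit set for this check, so that the main fit holds no block. Yet 5 of 5 arrays of curcumin-fed wild-type and 4 of 5 of DMSO-treated ahr-1(ju145) correlated best with their own number. A pairing by number may therefore exist that the main tests ignore. Without replicate 5 of both compared groups, 58 passed and 25 were lower. With each array left out in turn the count ran from 58 to 113, with 28 to 60 higher, 29 to 53 lower, 25 to 39 in the same and 17 to 30 in the opposite direction. The cause of these changes was not tested. Under the replicate block gst-4 (adjusted p = 0.0688), chtb-1 (0.0862), hbl-1 (0.0746) and ptr-4 (0.0882) passed as well, and with the embryo covariate chtb-1, hbl-1, egl-46, lpr-4, lpr-5 and ptr-4.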
